A study of Mustela putorius furo with 10 samples.

Results

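LOC101680639, the ferret gene that the study calls Siglec8, was described together with 5 other lectin genes that were looked for by symbol, namely SIGLEC1, SIGLEC10, SIGLEC15, CD33 and CLEC2D. Their target sequences were found through the RefSeq ferret symbol of the accession printed on the array. A gene was kept where a target sequence had the green dye Cy3 well above background on at least 4 of 10 arrays. Of the 6 genes, 4 matched a target sequence, and these gave 6 of the 45328 target sequences of the array, with 24 of its 181312 probes. All 6 target sequences were detected on at least 8 arrays, so no member lay just outside the threshold. SIGLEC10 and CD33 matched no target sequence under these symbols and were not analysed here.

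Peripheral blood mononuclear cells (PBMC) came from male ferrets (Mustela putorius furo) of 3 months of age, with free access to food and water and 12 h of light a day. The control group was kept at 22 °C and the cold group at 4 °C for 1 week, with cold ferrets housed individually. Of the 7 animals assigned to each group, 6 control and 4 cold ferrets had an array. The RNA of each ferret was labelled with Cy3 and hybridised on an array of its own against a red (Cy5) reference pool, which was PBMC RNA mixed with RNA of other tissues. The PBMC fraction was separated on a density gradient, and its cell composition in each ferret is not given in the sources used here, so that more cells of a type and more RNA per cell cannot be told apart in any value below.

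Siglecs are cell surface receptors of the immunoglobulin superfamily that bind sialic acids, the acidic sugars at the ends of many glycans. Most Siglecs of the CD33-related branch carry tyrosine motifs (ITIMs) in the cytoplasmic tail, which recruit phosphatases and dampen activation of the leukocyte that bears them. Human SIGLEC8 is known from eosinophils and mast cells, whereas SIGLEC1 (sialoadhesin) is a macrophage receptor that lacks such a motif, and SIGLEC15 pairs with an activating adaptor and is known from osteoclasts. CLEC2D (LLT1) is no Siglec but a C-type lectin-like protein of activated lymphocytes and other leukocytes, and it is the ligand of the inhibitory NK cell receptor KLRB1 (CD161).

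Levels are given as the log2 ratio of Cy3 to Cy5 on an array, after loess had set the middle of the spots to 0 at every brightness. A value of 1 then means that the ferret gave 2-fold the signal of the pool, relative to other spots of that brightness. Changes are the mean of the cold arrays less the mean of the control arrays on this log2 scale. No dye was swapped, so the level against the pool may hold dye bias of a probe. LOC101680639 and CLEC2D were chosen from the genes that the study put among its most regulated on these same arrays, so the values that selected them are their cold against control differences, which are given as a description without a test.

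The ferret Siglec gene LOC101680639 stood clearly higher in every cold ferret than in every control ferret. Its first target sequence, XM_004767130, read 1.04, 0.77, 1.17, 0.99, 1.28 and 0.67 in control ferrets 1 to 6. In cold ferrets 1 to 4 it read 2.36, 2.09, 3.12 and 2.25. The lowest cold value lay 0.81 above the highest control value, and cold ferret 3 was the highest of all. The control mean was 0.99 ± 0.23 (SD, n = 6) and the cold mean 2.45 ± 0.46 (SD, n = 4), which differ by 1.47 (SE 0.19), or a 2.77-fold higher ratio. The control level depended on the scaling, at 2.28 with the processed intensities of the scanner software and 2.84 under median centring, where each array was only centred on its median.

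The second target sequence of the gene, XM_004767131, gave the same picture. Its log2 ratios were 0.92, 0.84, 1.18, 0.92, 1.62 and 0.81 in the control ferrets and 2.21, 1.93, 3.33 and 2.53 in the cold ferrets. The groups again did not overlap, but the gap was smaller (0.31), between control ferret 5 and cold ferret 2. The difference was 1.45 (SE 0.25), a 2.73-fold higher ratio. On no array did the sequences differ by more than 0.34 from each other. They are transcripts of 1 gene, so their agreement is no second measurement of the animals. Among the 32400 target sequences tested they held places 10 and 11 when ordered by increase. Non-overlap with all cold ferrets above all control ferrets was found for 2.94% of all target sequences tested, and as the genes were chosen for this contrast, nothing is read from that share.

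**Figure D1:**
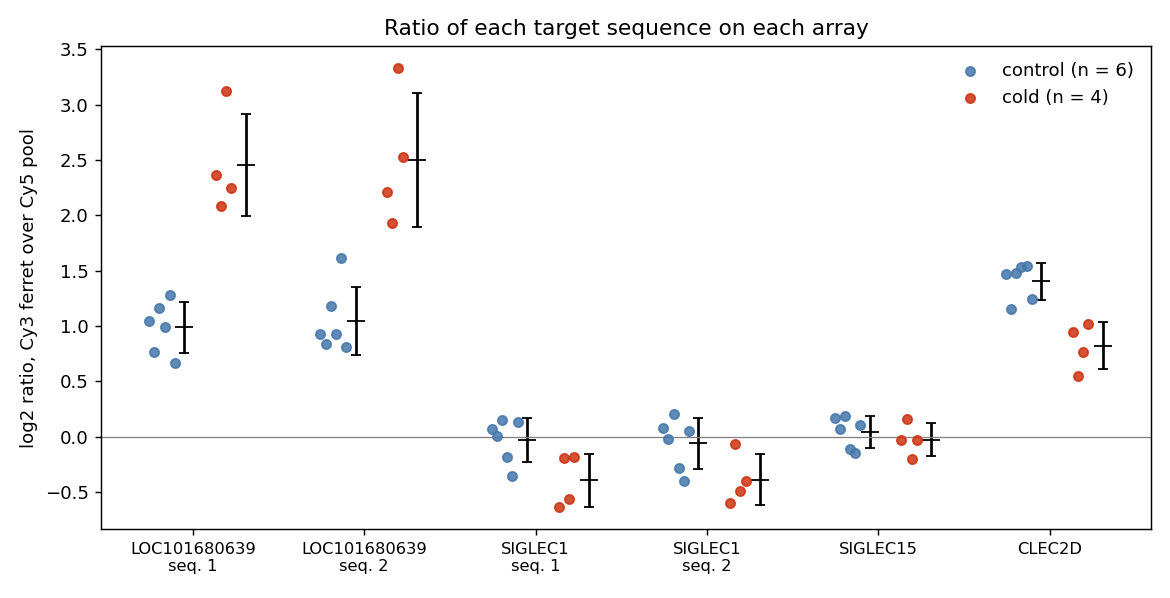
Log2 ratio of Cy3 (ferret) over Cy5 (reference pool) of the 6 target sequences, with a point for each array in control (blue, n = 6) and cold (red, n = 4) and black bars for mean ± SD. LOC101680639 is higher in all cold ferrets (from 1.93) than in all control ferrets (to 1.62), CLEC2D is lower in all cold ferrets, and the groups overlap for SIGLEC1 and SIGLEC15.

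The 8 probes of LOC101680639 gave similar changes. They lay between 1.39 and 1.53 for the first target sequence and between 1.38 and 1.52 for the second. The cold and control ferrets did not overlap for 7 of the 8 probes. Probes within a gene share the RNA of the same ferrets, so they bear on the measurement and not on the spread between animals.

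**Figure D2:**
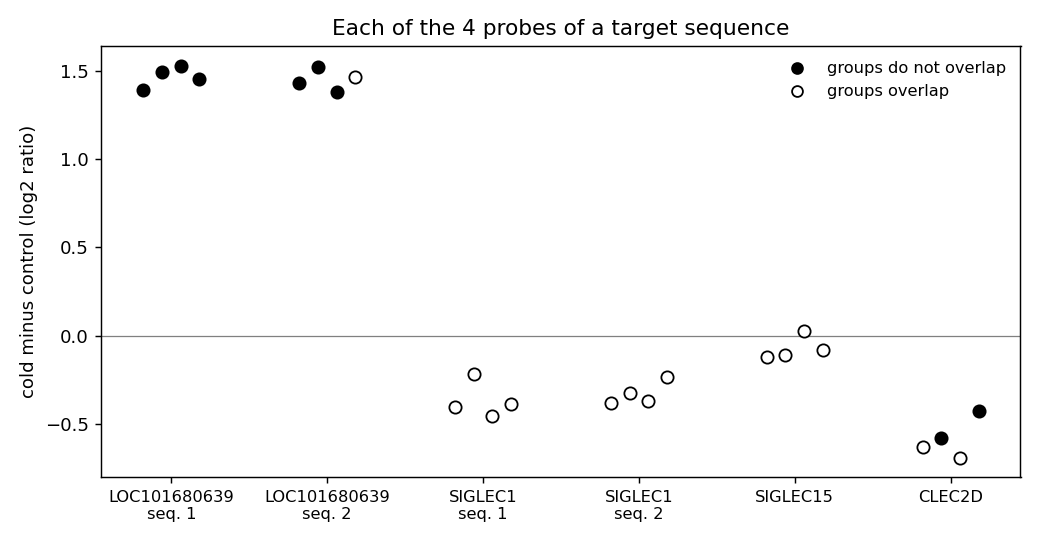
Cold minus control difference of the log2 ratio for each of the 4 probes of each target sequence, filled where the cold and control ferrets do not overlap. The 8 probes of LOC101680639 lie between 1.38 and 1.53, those of CLEC2D between -0.69 and -0.43, and those of SIGLEC15 on either side of 0.

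Brightness before normalization shows in which channel the difference lay. In Cy3, the channel of the ferret, the mean brightness of the 8 spots of the first target sequence was 2008, 1605, 1852, 1604, 1930 and 1486 in the control ferrets, and 3647, 6211, 7795 and 4439 in the cold ferrets, in scanner units. The second ran from 1628 to 2113 in control and from 4033 to 8391 in cold. Every spot of both was well above background in Cy3 on every array, and none was saturated. Before any scaling, the dimmest cold array was thus brighter for the gene in Cy3 than the brightest control array. On the log2 scale the difference in Cy3 was 1.61 and 1.65, whereas the median of all target sequences tested was 0.05.

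The pool channel was also brighter on cold arrays. Cy5 of the first target sequence ran from 50 to 150 in control and from 67.2 to 355 in cold, with cold array 1 the brightest and cold array 2 within the control range. Although the pool was the same RNA on every array, the log2 difference of Cy5 was 1.33 for the first and 1.43 for the second target sequence. The median of all target sequences tested was 1.25 in Cy5, somewhat less than for either target sequence of the gene. Only 39.6% of the control spots of the first target sequence were well above background in Cy5, against 84.4% of the cold spots. What part the uneven pool channel has in the ratio was not tested, but Cy3 alone, scaled between arrays without the pool, gave 1.33 and 1.37. The difference was 0.88 and 0.92 with processed intensities and 0.96 and 0.92 under median centring. The median of all target sequences moved to -0.11 and -0.43 in these settings, and less that median the gene differed by 0.98 and 1.02 and by 1.39 and 1.36. Values of single genes under median centring are given below less this median, while p values are of the difference as it stands.

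**Figure D3:**
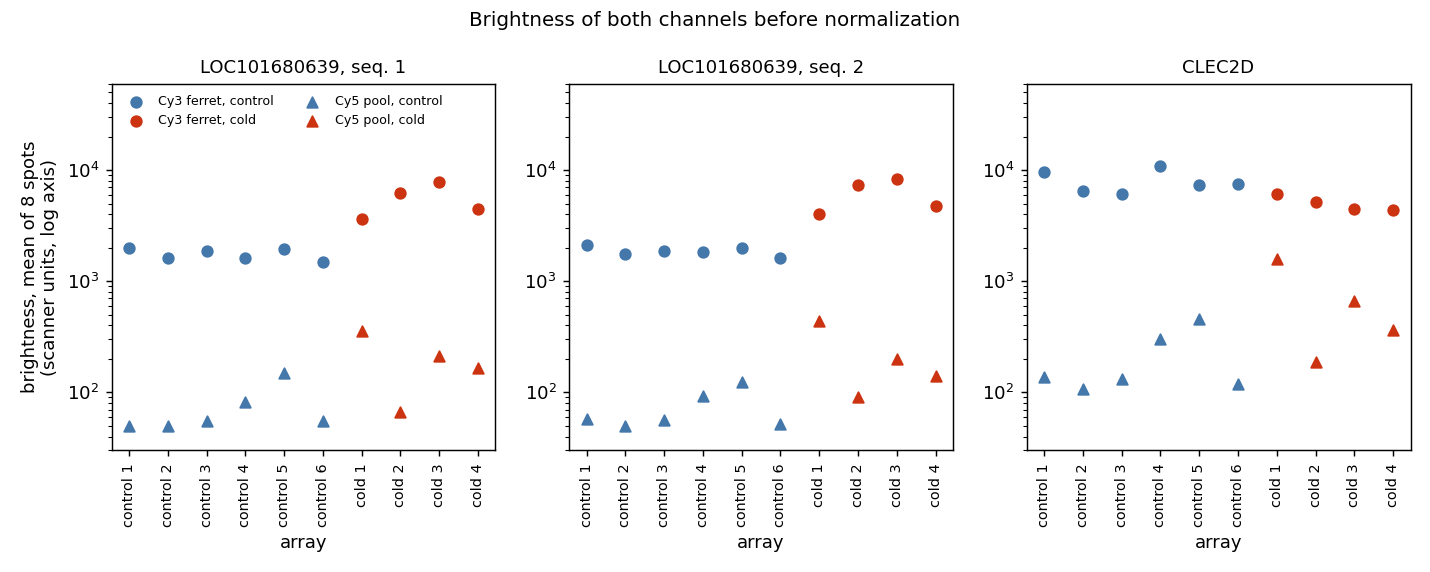
Brightness of the spots (mean of 8 spots per array, scanner units, log axis) of both target sequences of LOC101680639 and of CLEC2D, for Cy3 (circles) and Cy5 (triangles) on control (blue) and cold (red) arrays, before normalization. Cy3 of LOC101680639 is at most 2113 in control and at least 3647 in cold, while Cy5 is brighter on cold arrays for both genes.

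CLEC2D, the ligand of the NK cell receptor KLRB1, stood lower in the cold ferrets. Its target sequence, XM_004779708, read 1.47, 1.15, 1.48, 1.54, 1.54 and 1.24 in control ferrets 1 to 6 and 0.95, 0.54, 0.76 and 1.02 in cold ferrets 1 to 4. All cold values were below all control values, with a gap of 0.13 between cold ferret 4 and control ferret 2. The control mean was 1.40 ± 0.16 (SD, n = 6) and the cold mean 0.82 ± 0.21 (SD, n = 4), a difference of -0.58 (SE 0.12), or a 1.5-fold lower ratio. Its 4 probes differed by -0.69 to -0.43, and the groups did not overlap for 2 of them. Non-overlap in this direction was found for 2.15% of all target sequences tested, and again nothing is read from it.

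In Cy3 alone, CLEC2D was bright in both groups, from 6106 to 10984 in control and from 4401 to 6127 in cold. The ranges met, since the brightest cold array lay just above the dimmest control array. The log2 difference of Cy3 before scaling was -0.65, and that of Cy5 was 1.54. The size of the CLEC2D difference depended on how the channels were scaled. It was -0.96 with Cy3 alone, -1.18 in the deposited table of log2 values and -1.64 under median centring, or -1.20 less the median of all target sequences there. The sign was negative under each of these scalings.

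SIGLEC1 read somewhat lower in the cold ferrets, without passing the adjusted test. Its first target sequence, XM_004772872, gave 0.07, 0.01, 0.15, -0.18, -0.35 and 0.13 in the control ferrets and -0.64, -0.20, -0.57 and -0.18 in the cold ferrets. Cold ferrets 2 and 4 lay within the control range. The difference was -0.37 (SE 0.13, 95% interval -0.66 to -0.08), with an unadjusted limma p of 0.0178 and an adjusted p of 0.136. The exact two-sided permutation test over the 210 splits of the arrays, whose smallest p is 0.00476, gave p = 0.0286.

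The second target sequence of SIGLEC1, XM_004772873, had values of 0.08, -0.02, 0.21, -0.29, -0.40 and 0.05 in control and of -0.60, -0.07, -0.49 and -0.41 in cold. It differed by -0.33 (SE 0.14, 95% interval -0.64 to -0.02), with a limma p of 0.0392, an adjusted p of 0.184 and p = 0.0571 in the exact permutation test. All 8 probes of SIGLEC1 had a negative difference, from -0.46 to -0.22. The gene was dim. The spots of its first target sequence were well above background in Cy3 in 100% of cases in control and 50% in cold, and for the second the shares were 97.9% and 46.9%. In the pool channel the shares were 22.9% and 50% for the first and 18.8% and 56.2% for the second. The differences were -0.59 and -0.54 with Cy3 alone and -1.37 and -1.14 with processed intensities. Under median centring they were -0.18 and -0.12, or -0.62 and -0.56 as they stand. They were -0.29 and -0.23 in the deposited table, where the unadjusted p of neither was under 0.05. A limma p under 0.05 with a lower mean in cold was found for 12.5% of all target sequences tested and for both of SIGLEC1, which are transcripts of 1 gene. No target sequence of the array passed an adjusted p of 0.05 in limma (0% of 32400), while 8.6% had an unadjusted p under 0.01.

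The difference of SIGLEC15 was smaller than its own error in the main processing, and its sign depended on the scaling. Its target sequence, XM_004752343, read 0.16, 0.07, 0.19, -0.11, -0.15 and 0.10 in control and -0.03, 0.16, -0.20 and -0.03 in cold. The cold ferrets lay among the control ferrets except for cold ferret 3, the lowest of all. The difference was -0.07 (SE 0.10, 95% interval -0.29 to 0.15), with a limma p of 0.493, an adjusted p of 0.694 and p = 0.448 in the exact permutation test. The gene was dim, with 81.2% of the control spots and 78.1% of the cold spots well above background in Cy3, and 10.4% and 43.8% in the pool channel, so that its ratios rest on a pool signal near background. It differed by -0.38 with processed intensities and -0.32 with Cy3 alone, but by 0.17 in the deposited table, none with unadjusted p under 0.05. Under median centring it differed by 0.24, or by -0.19 as it stands, also without an unadjusted limma p under 0.05.

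**Figure D4:**
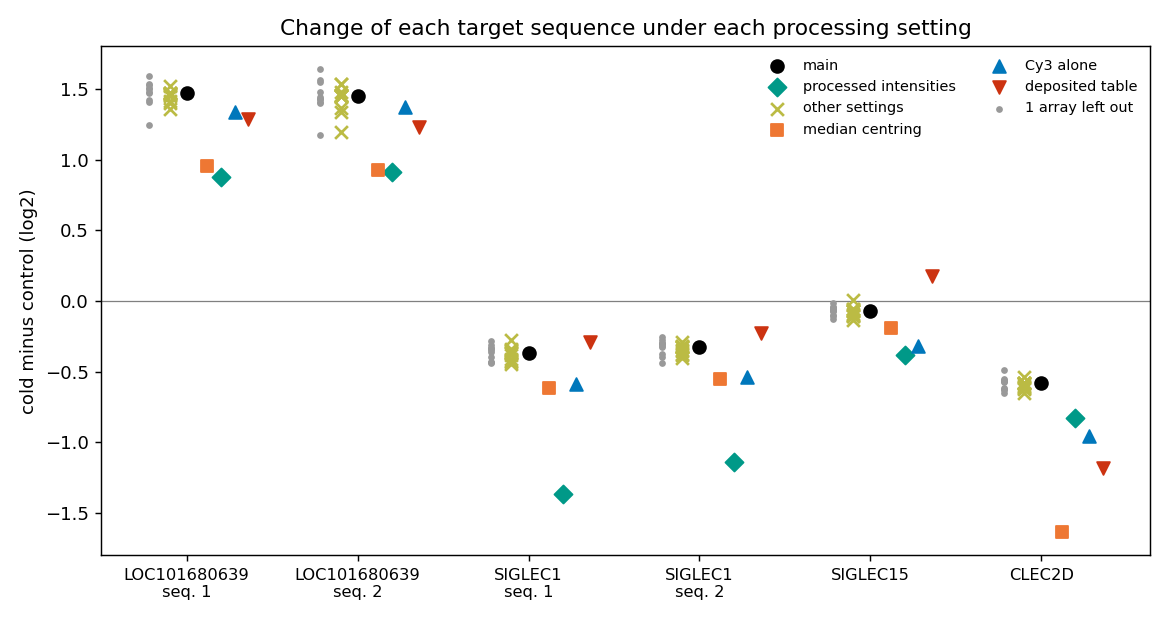
Cold minus control difference (log2) of each target sequence under the main processing (black) and under each alternative (colours), and with each array left out in turn (grey). LOC101680639 stays between 0.88 and 1.64 and CLEC2D between -1.64 and -0.49, SIGLEC1 is negative throughout, and SIGLEC15 takes either sign.

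The arrays lay at 2 slide positions, each with both groups. Within position 1 (control 1, 2, 4 and 6 with cold 1 and 2), the first target sequence of LOC101680639 differed by 1.36 and the second by 1.19. Within position 2 (control 3 and 5 with cold 3 and 4), they differed by 1.46 and 1.53. CLEC2D differed by -0.60 within position 1 and by -0.62 within position 2. As the groups do not overlap for either gene, the direction within a position was fixed beforehand and is no sign of stability. For the first target sequence of SIGLEC1 the values were -0.43 and -0.27, and for SIGLEC15 they were 0.01 and -0.14, with opposite signs.

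The other Siglecs measured had smaller differences than LOC101680639. That gene was chosen for its difference, so nothing is read from this order. CD22, the inhibitory Siglec of B cells, had 3 target sequences with differences of 0.09, -0.08 and -0.05, which became -0.18, -0.33 and -0.32 without control ferret 6. Its levels lay between 1.27 and 1.77 in control ferrets 1 to 5 for the first of these and at -0.21 in control ferret 6, against 0.98 to 1.72 in cold. SIGLEC11, an ITIM-bearing Siglec of the CD33-related branch, differed by -0.23 (SE 0.14, adjusted p = 0.332). SIGLECL1, a Siglec-like gene outside the list, differed by -0.07, 0.03 and 0.07 in its 3 target sequences. Of 15 Siglec symbols other than LOC101680639, 4 were measured. By the brightest target sequence of each gene all 4 had a lower mean in cold, although another of CD22 had a higher one, and none had a limma p under 0.01. Less the median of all target sequences the list stood at -0.14, at -0.33 under median centring, -0.37 with Cy3 alone and -0.26 without control ferret 6. Its median change was -0.15, against -0.02 over the 9276 named genes tested, of which 53.6% had a lower mean in cold.

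Genes that act with Siglecs were read from lists, with 1 target sequence for each gene. No gene of any list passed the adjusted limma test (0% of the named genes tested did), and the adjusted p values below are over all target sequences. Of the list genes named below with an unadjusted limma p under 0.01, MPO and HBM kept it with processed intensities, median centring, Cy3 alone and the deposited table, and each of the others lost it in at least 1 of these. Over all named genes tested, an unadjusted limma p under 0.01 was found with a higher level in cold for 5.13% and with a lower level for 3.27%. All cold ferrets lay above all control ferrets for 2.85% of them and below for 2.22%, and 46.4% had a higher mean in cold. Of the 10 measured genes of Siglec signalling, 1 was higher and 1 lower at this p, with a median change of -0.07 for the list. Less the median of all target sequences, the list stood at -0.06 in the main processing, -0.54 under median centring and -0.51 in the deposited table. LYN, the kinase that phosphorylates ITIMs, differed by 0.53 (SE 0.15, adjusted p = 0.0933), but by -0.0049 under median centring. PTPN11 (SHP-2), a phosphatase recruited to ITIMs, differed by -0.33 (SE 0.10, adjusted p = 0.108), but by -0.05 with Cy3 alone. Its unadjusted p was no longer under 0.01 when any 1 of 8 of the 10 arrays was left out. INPP5D (SHIP-1) differed by -0.01.

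The sugars that Siglecs bind are made and removed by other enzymes. The 4 measured genes of sialic acid supply split evenly, with 2 higher and 2 lower and none with p under 0.01. Among 7 measured sialyltransferases, which attach sialic acids to glycans, 1 had p under 0.01. This was ST3GAL2, with a difference of 0.44 (SE 0.13, adjusted p = 0.0988), and of 0.42 under median centring with unadjusted p over 0.05. With processed intensities it differed by 0.07. Its unadjusted limma p was no longer under 0.01 when any 1 of 6 of the 10 arrays was left out. Of 6 measured genes that remove or degrade sialic acids and of 4 that carry or sulphate Siglec ligands, none had p under 0.01. The medians of these lists lay between -0.15 and 0.08, in the main processing. Less the median of all target sequences, the list of ligand carriers stood at -0.13 there, but at -0.73 under median centring and -0.62 in the deposited table. The list of sialic acid supply turned from 0.07 to -0.20 and -0.18, that of sialic acid removal from 0.09 to -0.08 and -0.16, and that of sialyltransferases from -0.03 to 0.06 and 0.09.

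Other lectins of the NK gene complex, to which CLEC2D belongs, were mixed. Beside CLEC2D, 8 were measured, of which 6 were higher and 2 lower in mean. CLEC7A (dectin-1), the myeloid receptor of fungal glucans, had the only p under 0.01, with a mean of 0.63 ± 0.33 (SD, n = 6) in control and a difference of 0.79 (SE 0.25, adjusted p = 0.110). CLEC7A differed by 0.37 with processed intensities, 0.73 under median centring and 0.52 without cold ferret 3, and its unadjusted p was no longer under 0.01 with any of these, nor when any 1 of 8 of the 10 arrays was left out. CLEC12B, an inhibitory receptor, did not overlap between groups, with a difference of 0.22 (SE 0.08, adjusted p = 0.124). CD69, an early activation marker of lymphocytes, differed by -0.42 (SE 0.16, adjusted p = 0.154). KLRB1, the receptor gene of CLEC2D, matched no target sequence under this symbol.

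Of inhibitory receptors outside the Siglec family, 12 were measured. Of these 12, 4 had p under 0.01 and a higher level in cold, and none a lower one, with a median change of 0.27. LAIR1, a collagen receptor with ITIMs, read 0.86 to 1.59 in control and 1.64 to 2.10 in cold, a difference of 0.65 (SE 0.16, adjusted p = 0.0756). SIRPA, the myeloid receptor of CD47, differed by 0.61 (SE 0.15, adjusted p = 0.0784), also without overlap. MILR1, an inhibitory receptor of mast cells, differed by 0.77 (SE 0.20, adjusted p = 0.0827), and CD300LF by 0.58 (SE 0.16, adjusted p = 0.0938). Under median centring LAIR1, SIRPA and CD300LF differed by 0.13, 0.14 and 0.31 and MILR1 by 0.89, none with unadjusted p under 0.05, and the median of the list less that of all target sequences was -0.06 there, -0.10 in the deposited table and 0.29 in the main processing.

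Markers of some blood cell types moved with the groups and those of others hardly did. The part of cell types in the values of LOC101680639 and CLEC2D was not tested. Of 10 eosinophil markers, 4 were measured and all 4 had a higher mean in cold. The median level of the list was 0.11 to 0.53 in control and 0.39 to 0.98 in cold. EPX, the eosinophil peroxidase, differed by 0.10 (SE 0.10, adjusted p = 0.582), from a control mean of 0.03 ± 0.15 (SD, n = 6). Its size depended on the scaling, at 0.54 with processed intensities, 0.72 under median centring, 0.50 in the deposited table and 0.28 with Cy3 alone. In none of these was the unadjusted limma p under 0.05. IL5RA, the interleukin 5 receptor, differed by 0.13 (SE 0.13, adjusted p = 0.582), by 0.07 under median centring, but by -0.43 with Cy3 alone and -0.09 at slide position 2. ADGRE1, a surface receptor also of monocytes in other species, differed by 0.84 (SE 0.26, adjusted p = 0.108) and GATA1, a transcription factor also of platelet and red cell precursors, by 0.61 (SE 0.19, adjusted p = 0.107). ADGRE1 differed by 0.57 under median centring and 0.42 with processed intensities, and the unadjusted p of GATA1 was no longer under 0.01 when any 1 of 7 of the 10 arrays was left out. PRG2, PRG3, CCR3, ALOX15 and RNASE2 matched no target sequence under these symbols, and SMPD3 was not above background.

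Granulocyte and monocyte markers mostly had a higher mean in cold. All 8 measured neutrophil markers had a higher mean in cold, with a median level of 0.28 to 1.18 in control and 1.40 to 1.96 in cold, ranges that did not overlap. MPO (myeloperoxidase) differed by 1.41 (SE 0.26, adjusted p = 0.0569), LCN2 by 0.67 and S100A9 by 1.15, and S100A8 had a mean of 0.65 in control and 1.76 in cold. All 4 had an unadjusted limma p under 0.01 and did not overlap between groups. Under median centring S100A8 differed by 0.42 and S100A9 by 0.52, in the deposited table they differed by 0.57 and 0.64, and LCN2 differed by 0.29 with processed intensities, each then with unadjusted p over 0.05. Of 10 monocyte markers 9 had a higher mean, and VCAN (1.31), CD86 (0.72), CD14 (0.66) and CD36 (1.45) had p under 0.01, with CD14 at 0.07, CD86 at 0.47, CD36 at 0.80 and VCAN at 1.12 under median centring, none of them then with unadjusted p under 0.05. Less the median of all target sequences, the monocyte list stood at 0.56 in the main processing, 0.12 in the deposited table and 0.02 under median centring. Of the basophil and mast cell markers, HDC, the enzyme that makes histamine, differed by 1.13 (SE 0.30, adjusted p = 0.0872) and by 1.14 under median centring, there with unadjusted p over 0.05, and 5 of 6 measured had a higher mean.

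Markers of lymphocytes, the cells known for CLEC2D, were mostly lower. Of 10 T cell markers 9 had a lower mean in cold, and their median level was -0.09 to 0.28 in control and -0.93 to -0.08 in cold. LCK, the kinase of the T cell receptor, differed by -0.75 (SE 0.18, adjusted p = 0.0756) without overlap. Of 9 B cell markers 8 had a lower mean, with EBF1 at -1.10 (SE 0.29, adjusted p = 0.0869), or -0.69 with Cy3 alone. Under median centring LCK differed by -1.40, and the T cell list less the median of all target sequences went from -0.49 to -1.11. Without cold ferret 3 the T cell list stood at -0.29. The 6 measured NK cell markers had a median change of 0.04 and the 4 of plasmacytoid dendritic cells one of -0.11, none with p under 0.01. Less the median of all target sequences, the NK list turned from 0.06 to -0.20 under median centring. The plasmacytoid dendritic list went from -0.10 to 0.27 in the deposited table and to -0.36 with processed intensities. All 6 measured platelet markers had a higher mean in cold, 2 with unadjusted p under 0.01, among them GP9, a platelet glycoprotein, at 0.87. All 5 measured erythroid markers had a lower mean, 1 with unadjusted p under 0.01, which was HBM, a haemoglobin chain, at -2.56.

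**Figure D5:**
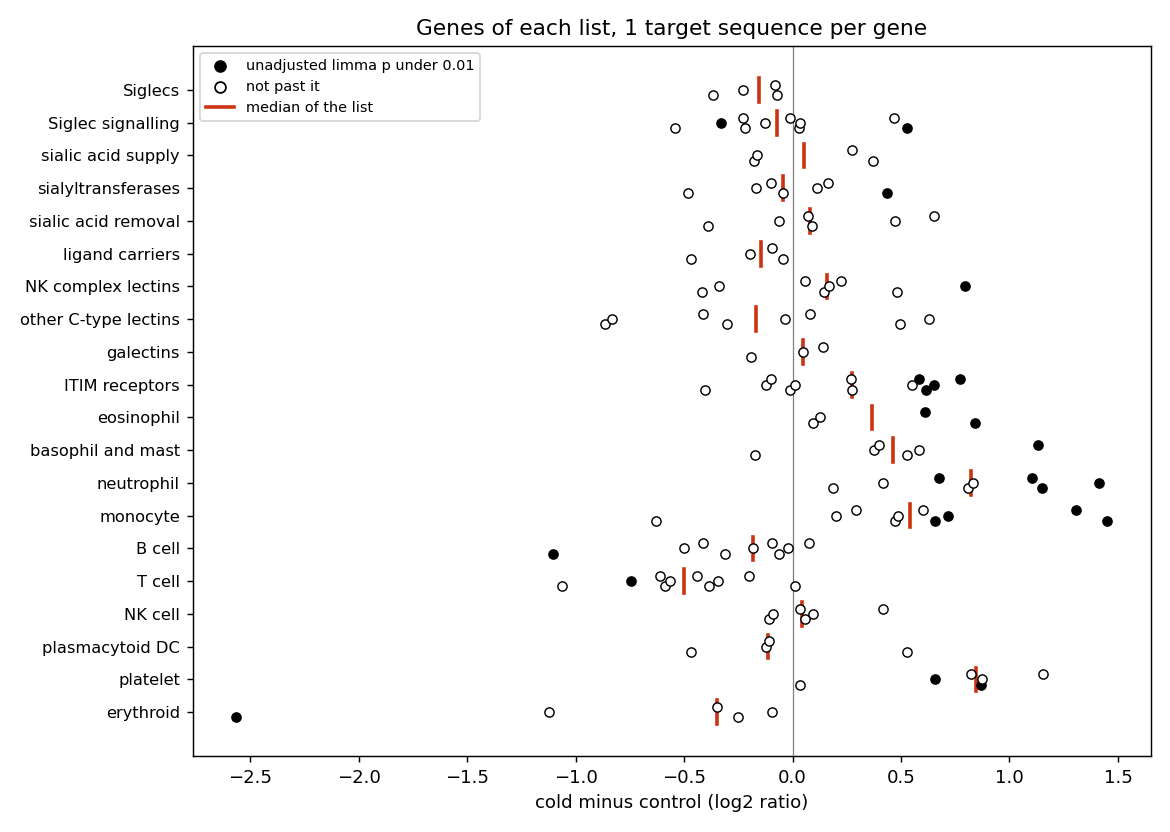
Cold minus control difference of the log2 ratio for each measured gene of each list (points, filled where the unadjusted limma p is under 0.01) and the median of each list (red line), without LOC101680639 and CLEC2D. Neutrophil, monocyte and platelet markers lie mostly above 0 and T cell markers mostly below. LYN, ST3GAL2, LAIR1, SIRPA, CD300LF, IL5RA, S100A8 and CD14 are below 0 under median centring, where the median of all target sequences is -0.43, but of these only LYN is below that median.

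The genes whose pattern was most like that of LOC101680639 over the 10 arrays were MFSD9, E2F3, DAPK1, GLIPR2 and SEC24D, with Pearson's r of 0.985, 0.979, 0.978, 0.973 and 0.969. Each of them was higher in all cold than in all control ferrets and highest in cold ferret 3. LOC101680639 has both traits, so they go with the choice by likeness and nothing is read from them. DAPK1, a kinase of cell death pathways, had the widest change of these, from a mean of 0.27 in control to 1.24 in cold. With the group means removed, the likest genes were PLGRKT, CUNH7orf57, SMPD2, COMMD2 and CHRM3, with r of 0.968, 0.967, 0.965, 0.950 and 0.950. These values describe shared arrays, groups and scaling. Genes named only by a LOC symbol were left out of this comparison. Of 8341 named genes compared, 127 (1.52%) had an r above 0.9 over the 10 arrays.

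The genes tested beside LOC101680639 in the order of the RefSeq table had smaller differences. Almost every target sequence had a smaller increase than this gene, which was chosen for its difference, so nothing is read from that. ZNF175, 2 protein-coding genes away, differed by -0.02, and LOC101678525, the next on the other side, by 0.22, neither with an unadjusted limma p under 0.05. LOC101678204, which lies between ZNF175 and LOC101680639, was not tested. LOC101681526, the neighbour of CLEC2D, differed by 0.62 with an unadjusted limma p under 0.01, against -0.58 for CLEC2D.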

How the data were processed

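PBMC RNA of 6 control and 4 cold ferrets was measured on 10 custom 2-colour Agilent arrays. The authors deposited for each array the median intensity and local background of every spot in both channels, read with Agilent Feature Extraction (10.7.3.1 per the file headers), together with processed intensities and spot flags. They also deposited a log2 table per target sequence. Within a sequence it equals log2 Cy3 less log2 Cy5 (r = 1.00), and how the constant of each sequence was set is not given in the sources used here. The planned mean intensity was replaced by the median that the files hold.

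Intensities were background corrected with limma 3.58.1 in R 4.3.3 (normexp, offset 50). Ratios were then normalized by loess with span 0.3 and 4 iterations, with control spots left out. Without outlier spots, values were averaged over the spots of a probe and then over the probes of a target sequence. Probes entered when Cy3 exceeded background in a share of 0.5 or more of the spots on 4 or more arrays, so that 111051 probes and 32400 target sequences remained. RefSeq (ASM1176430v1.1) named 21104 target sequences, and 9276 named genes were tested by their brightest target sequence. Groups were compared with lmFit and eBayes, p values were adjusted after Benjamini-Hochberg across the target sequences tested, and SIGLEC1 and SIGLEC15 also had an exact permutation test. Simulated data served to test the fit. The members and gene lists were chosen with earlier results of these data known. Named are all member target sequences, of each list up to 6 genes with the lowest unadjusted p under 0.01, the eosinophil markers, and the 5 genes most like LOC101680639 by each correlation. INPP5D, CLEC12B, CD69, CD22, SIGLEC11, SIGLECL1 and the neighbouring genes were named after their values were seen.

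Spots above background made up 50.4 to 63.5% in Cy3 and 27.0 to 64.0% in Cy5, and the number of arrays limits the precision. Each array was on its own slide and all were scanned on 1 day. The median Cy5 brightness of an array was 44 to 80 in control and 48 to 152 in cold. Alternatives were processed intensities, raw intensities, centring on the median, quantile normalized Cy3, the deposited table, no filter or a stricter one (10 arrays), medians of probes, whole genes, the methods' t-test, weights for arrays, blocks of slide position or replicate number, and each array left out. Each slide position alone was added after the data had been seen. 1 gene that the naming rule would have included is not reported here.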

Additional observations from a re-analysis of the deposited data

Results flagged for a closer look

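In 12 of 78 groups checked (39 target sequences), 1 ferret stood apart from the others of its group by Dixon's criterion. Chance alone marks about 1 in 20 groups. The groups share ferrets and include several transcripts of CD22 and of SIGLECL1, so they are not independent and no excess is read from the count. Among the Siglecs, CD22 was low in control ferret 6 in all 3 target sequences, at -0.21, -0.048 and -0.15, against 1.14 to 1.81 in the other control ferrets. SIGLECL1 was high in control ferret 5 in its 3 target sequences, at 0.60, 0.52 and 0.78. Control ferret 5 was also high for MILR1 (0.96) and VCAN (1.61). S100A9 was low in control ferret 4, at 0.47. EPX, the eosinophil peroxidase gene, was high in control ferret 1, at 0.31. In the cold group, cold ferret 2 had the highest EBF1 (-0.97) and cold ferret 3 the lowest LCK (-1.43). No target sequence of LOC101680639, SIGLEC1, SIGLEC15 or CLEC2D was marked in either group.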

How the results depend on the processing

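The differences of LOC101680639 and CLEC2D kept their direction under each scaling run, and their size moved with it. With arrays left out, that direction was fixed, since their groups do not overlap. With processed intensities the LOC101680639 target sequences differed by 0.88 and 0.92, CLEC2D by -0.83, and SIGLEC1 by -1.37 and -1.14, both then with unadjusted p under 0.01, whereas in the deposited table (-0.29 and -0.23) neither was under 0.05. Under median centring the values were 0.96 and 0.92 for LOC101680639 (1.39 and 1.36 relative to all target sequences) and -1.64 for CLEC2D. There SIGLEC1 differed by -0.62 and -0.56 (-0.18 and -0.12 relative to all target sequences) and SIGLEC15 by -0.19 (0.24 relative to all). CLEC2D differed by -0.96 with Cy3 alone and by -1.18 in the deposited table, and SIGLEC15 was -0.38 with processed intensities and -0.32 with Cy3 alone, but positive in the deposited table (0.17) and at slide position 1 (0.0082). Leaving out 1 array gave 1.25 to 1.59 and 1.17 to 1.64 for LOC101680639, -0.65 to -0.49 for CLEC2D, -0.44 to -0.29 and -0.44 to -0.26 for SIGLEC1, and -0.13 to -0.01 for SIGLEC15. The first target sequence of SIGLEC1 had unadjusted p under 0.01 without control ferret 5, and the second without cold ferret 2.

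Control levels against the pool were 2.28 and 2.25 (LOC101680639), 0.56 and 0.41 (SIGLEC1), 0.71 (SIGLEC15) and 1.77 (CLEC2D) with processed intensities, and 2.84 and 2.94 (LOC101680639) and 3.90 (CLEC2D) under median centring. Cy3 alone and the deposited table give no such level.

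Over all target sequences, 2785 had unadjusted p under 0.01, 59.7% of them higher in cold. The count was 1842 (40.6% higher) with processed intensities, 1520 (16.2%) under median centring with its median of -0.43, 1432 (45.0%) in the deposited table, 1285 (61.2%) and 545 (92.3%) at slide positions 1 and 2, 2091 with the methods' t-test, and 1564 to 4141 with 1 array left out (43.5% higher without control ferret 5 to 68.3% without cold ferret 1). It was lowest without cold ferret 3 (1564), control ferret 1 (1757) and control ferret 2 (1853). At an adjusted p of 0.05 the count was 0, also with the methods' t-test, but 919 with Cy3 alone, 128 with the filter on all 10 arrays, 6 with array weights, and 0 to 1502 with 1 array left out (586 without control ferret 5, 14 without cold ferret 1, 1502 without cold ferret 2). Of the list genes, 24 had unadjusted p under 0.01 in the main processing, 15 with processed intensities, 10 under median centring, 14 in the deposited table, 13 with the methods' t-test, 14 and 10 at the slide positions, and 13 to 30 with 1 array left out (15 without control ferret 2, 13 without cold ferret 3).

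Under median centring LYN (-0.44), ST3GAL2 (-0.0097), CD300LF (-0.12), LAIR1 (-0.30), SIRPA (-0.29), IL5RA (-0.36), S100A8 (-0.012) and CD14 (-0.36) were negative. The median of all target sequences was -0.43 there, and less that median LYN stood at -0.0049 and the other 7 genes between 0.07 and 0.42. IL5RA was also negative with Cy3 alone (-0.43) and at slide position 2 (-0.0907). The causes were not tested. The sources used here do not say that replicate numbers pair the ferrets. Deviations of same-numbered ferrets correlated at -0.29, 0.55, 0.09 and -0.19, which cannot settle it, since scaling and cell mix can also enter them. With the replicate block, LOC101680639 differed by 1.46 and 1.53, CLEC2D by -0.59, SIGLEC1 by -0.41 and -0.39 and SIGLEC15 by -0.10, and 3068 target sequences had unadjusted p under 0.01. Dim signal limits SIGLEC1 and SIGLEC15, which were near background on part of the spots.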
